A study of Drosophila melanogaster with 3 samples.

Results

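Broad (br), Eip74EF, Eip93F, Eip63E and Kr-h1 are early regulators of the Drosophila steroid hormone cascade that are not nuclear receptors, and binding of the repressor Hairy along them was described here. The genes were chosen by name, and each was taken from 1 kb upstream of its annotated start to its end. They are 5 of 13945 protein-coding genes on 6 chromosome arms, and they hold 49 of the 10233 peak summits that the authors' reproducibility procedure kept. All 5 of the 5 genes carried at least 1 such summit, against 36.7% of all protein-coding genes and 68.9% of the 1463 that are at least as long as Kr-h1, the shortest of the 5.

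Ecdysone released at the end of larval life binds the receptor EcR/usp, which switches on a small set of early genes whose products then regulate many later ones. br encodes BTB zinc-finger proteins that commit tissues to pupal development, Eip74EF encodes an ETS-family factor, and Eip93F encodes the helix-turn-helix factor E93, which acts in salivary gland death and in adult specification. Eip63E encodes a cyclin-dependent kinase that works with cyclin Y, and Kr-h1 encodes a zinc-finger repressor that responds to juvenile hormone and holds back metamorphosis. Hairy, encoded by h (hry in the current annotation), belongs to the HES family of DNA-binding repressors, which act through corepressors such as Groucho. br, Eip74EF and Eip63E have several promoters, so the position of a summit relative to each alternative transcription start site (TSS) was followed throughout.

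The data are anti-GFP chromatin immunoprecipitation and sequencing (ChIP-seq) libraries from whole, mixed-sex larvae in the wandering stage of the third instar. The animals, of strain 15T-GFP, carried a transgene for h with GFP at the C terminus of the protein, and the labels give no age beyond the stage and do not say whether the endogenous h gene was intact. There were 3 biological replicates of 1 group and no second condition, so every value below is a description of binding in this stage and no test was run. Whole larvae mix all tissues, so binding in many cells and strong binding in few cells cannot be told apart. The control library was not analysed here, so peaks that would arise without the fusion protein cannot be told apart from its binding.

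Each peak carries the authors' signal value, a score with no stated scale, and peaks were ranked by it inside their own list only, with rank 1 as the strongest. Read depth is unknown, since no read totals come with the peaks, and counting intervals are not given. The reproducible list, made from all replicates together, runs from a signal value of 105.2 to 6471, with a median of 202.1. Each replicate list holds 30000 peaks, and its 10233 strongest are called its top list. A pooled list of all replicates is labelled as peaks and background, so its weaker entries can be background. The same may hold for the weaker entries of the replicate lists. A replicate's top list held a reproducible summit if any peak of it covered that summit, while the replicate rank printed for a summit is that of the covering peak with the nearest summit, so a printed rank can lie past the top list where a stronger peak also covers the summit. Positions are 1-based on dm6.

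Eip74EF held 20 reproducible summits, br 14, Eip63E 8, Kr-h1 6 and Eip93F 1. In the replicate top lists Eip74EF had 18 summits in each of replicates 1, 2 and 3. The br gene had 13, 15 and 10 (mean 12.7 ± 2.52, SD, n = 3), which lies below Eip74EF in every replicate. Eip63E had 7, 7 and 8 (7.33 ± 0.577) and Kr-h1 had 4, 7 and 6 (5.67 ± 1.53), so the counts of these genes touched at 7. Eip93F had 1 in each replicate, fewer than any of the other genes in any replicate. In the top lists the order was therefore separated by the replicate spread at each step but that between Eip63E and Kr-h1. It depends on the list, since with all 30000 peaks of each replicate br (mean 72.7) stood above Eip74EF (41.3) and Eip93F (15.3) above Kr-h1 (11.3). Above the median signal value br and Eip63E were level at 4 summits each, and in all 3 top lists at 7.

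Gene length changes that order. Per 10 kb of the gene and its upstream 1 kb, Kr-h1 (13.9 kb) held 4.03 summits, Eip74EF (60.7 kb) 3.24, br (89.7 kb) 1.54, Eip63E (94.8 kb) 0.835 and Eip93F (65.4 kb) 0.151. The median of the 1463 long genes was 0.609 per 10 kb, with 2 summits over a median length of 27.7 kb. Of those genes 2.26% were denser than Kr-h1, 5.13% than Eip74EF, 23.4% than br, 41.9% than Eip63E and 67.9% than Eip93F. Kr-h1 and Eip74EF thus stood in the dense tail, Eip63E near the middle and Eip93F below it. Over the gene body alone Kr-h1 kept 4 summits, or 2.88 per 10 kb, below the 3.13 of Eip74EF with 19, so which of these is densest turns on the upstream 1 kb. Next to the 5 genes in that order stood beat-Ib and Amph around br, Ptpmeg2 and CG46385 around Eip74EF, DIP-alpha and bru1 around Eip93F, Ae2 and mim around Eip63E, and Rgl and jigr1 around Kr-h1.

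**Figure D1:**
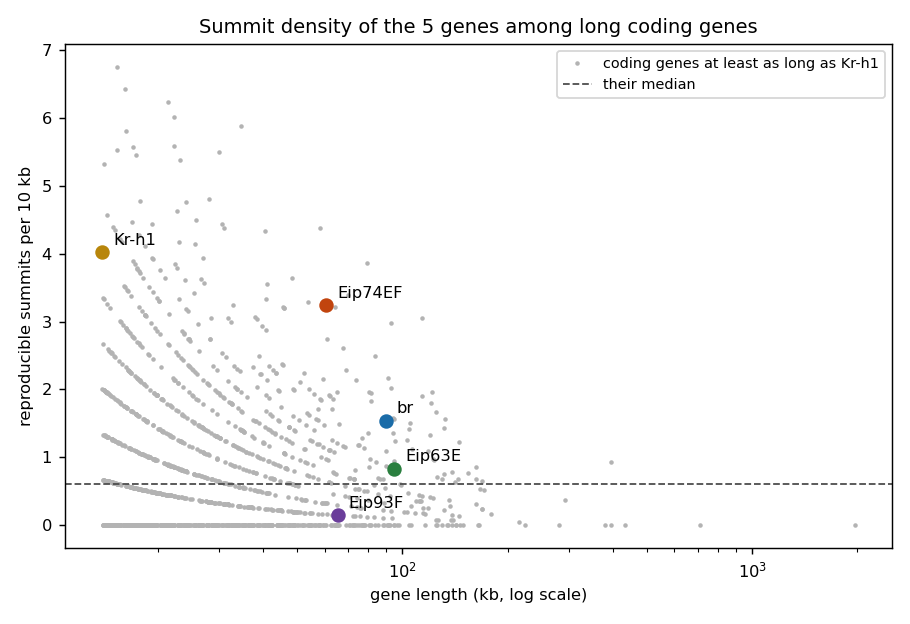
Reproducible summits per 10 kb of the gene and its upstream 1 kb against gene length on a log axis, with 1 point for each of the 1463 coding genes at least as long as Kr-h1 and the 5 ecdysone regulators in colour. Kr-h1 (4.03) and Eip74EF (3.24) lie far above the dashed median of 0.609, and Eip93F (0.151) lies below it.

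By strength the order was different again. The strongest summit of Eip63E had a signal value of 993.8 and rank 401 in the reproducible list, that of Kr-h1 875.9 and rank 520, and that of Eip74EF 782.4 and rank 658. The strongest of br reached 495.5, at rank 1464, and the only summit of Eip93F 130.3, at rank 8325. Replicate ranks were 397, 360 and 444 at Eip63E and 484, 578 and 724 at Kr-h1, which do not overlap. The ranks of 581, 698 and 281 at Eip74EF overlap both, so its place among the 3 was not fixed by the replicates. br followed at 1222, 1935 and 1663, and Eip93F came last at 8819, 10232 and 7580, each apart from the others. Of the 49 summits 22 (44.9%) were above the median signal value of the list, and those of Eip74EF made up 11 of them.

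The bases around the summits that the results turn on are shown so that the letters under them can be read directly. Each line gives the dm6 genome on the plus strand from 100 bases before the summit to 100 bases after it. Capitals mark matches on either strand to the N-box (CACNAG), the class C site (CACGCG), the class B E-box (CACGTG) or the core of hormone receptor elements (AGGTCA), all of them short motifs searched at every summit. For Eip74EF the second strongest summit is shown, because the window of the strongest lies partly in a 5′ untranslated region.
br, strongest summit (chrX:1595803-1596003): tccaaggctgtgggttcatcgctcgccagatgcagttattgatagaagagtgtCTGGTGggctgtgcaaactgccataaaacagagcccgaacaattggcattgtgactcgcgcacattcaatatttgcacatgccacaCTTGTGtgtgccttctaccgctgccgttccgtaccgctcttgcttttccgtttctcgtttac
Eip74EF, second strongest summit (chr3L:17578451-17578651): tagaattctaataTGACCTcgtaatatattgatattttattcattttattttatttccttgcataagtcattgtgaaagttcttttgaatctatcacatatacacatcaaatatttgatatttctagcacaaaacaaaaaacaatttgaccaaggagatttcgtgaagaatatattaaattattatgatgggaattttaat
Eip93F, only summit (chr3R:21993002-21993202): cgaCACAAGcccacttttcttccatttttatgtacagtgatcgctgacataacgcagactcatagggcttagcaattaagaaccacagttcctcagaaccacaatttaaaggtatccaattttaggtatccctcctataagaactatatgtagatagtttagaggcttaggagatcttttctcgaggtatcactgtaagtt
Eip63E, strongest summit (chr3L:3517971-3518171): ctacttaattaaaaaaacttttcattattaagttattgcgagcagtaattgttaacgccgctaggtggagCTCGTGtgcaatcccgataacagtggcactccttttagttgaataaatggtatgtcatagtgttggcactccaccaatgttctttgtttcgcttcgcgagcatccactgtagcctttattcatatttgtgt
Kr-h1, strongest summit (chr2L:6088449-6088649): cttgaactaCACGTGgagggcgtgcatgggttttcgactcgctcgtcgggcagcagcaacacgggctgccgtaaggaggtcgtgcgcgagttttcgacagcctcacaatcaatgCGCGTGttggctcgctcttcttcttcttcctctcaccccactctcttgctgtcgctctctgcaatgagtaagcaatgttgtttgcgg
The br window held N-box matches on both sides of the summit, CTGGTG 45 bp to the lower side and CTTGTG 42 bp to the higher side. The Eip63E window held 1, CTCGTG at 28 bp, and the Eip93F window held CACAAG at 95 bp, near its edge. The Kr-h1 window held a class C match, CGCGTG, 17 bp from the summit and a class B E-box, CACGTG, at 89 bp. The Eip74EF window held neither an E-box nor an N-box among these letters and had the receptor element core as TGACCT, 85 bp away.

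**Figure D2:**
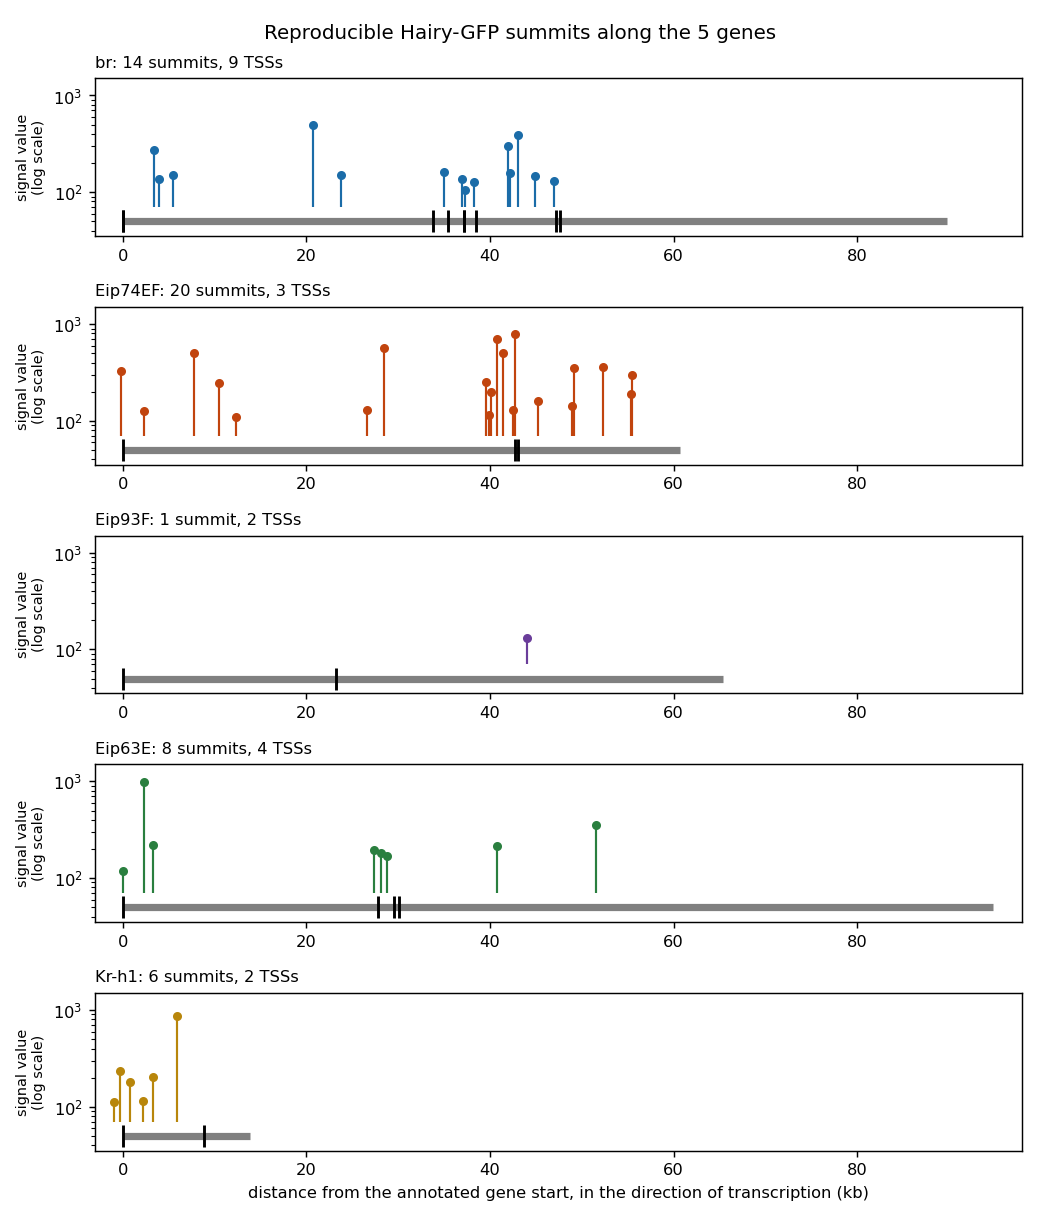
Reproducible summits along each gene, drawn to one scale in kb from the annotated start in the direction of transcription. Stems give the signal value on a log axis, the grey bar is the gene and black ticks are its alternative TSSs. Summits of Eip74EF crowd around its internal TSSs, those of br stop before the last 42.8 kb, and Eip93F has 1.

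Broad is the ecdysone-induced gene whose isoforms share a BTB domain and differ in their zinc fingers. The gene (FBgn0283451, X 1575132 to 1664869, plus strand) has 16 annotated transcripts from 9 TSSs. Its 14 summits, by its own transcripts 13 in introns and 1 in a 5′ UTR, spread over the first 46.9 kb of the gene, and none lay in the last 42.8 kb. That stretch held 35 weaker entries of the pooled list, none of which was kept.

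The strongest br summit lay in an intron at 1595903, 12966 bp upstream of the TSS of transcript RH. It ranked 1222, 1935 and 1663 in replicates 1 to 3 (mean 1607 ± 360). The second, at 1618146 with a signal value of 388.5, ranked 1854, 1955 and 2736. It lay 9 bp from an internal TSS of Mur2B, a mucin-related gene on the opposite strand that spans the whole of br (X 1523554 to 1668788), so all 14 summits lie inside both genes. The third, at 1617075 with a signal value of 300.9, ranked 3487, 2763 and 3285 and also lay nearer to Mur2B, 1080 bp from its TSS. The fourth, at 1578484 with 269.5, ranked 2948, 5762 and 3486 and was 3335 bp downstream of the TSS of RO. Of the 14 summits 4 had a Mur2B TSS as the nearest coding TSS, and which of the overlapping genes they belong to cannot be told apart.

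At br the summits were many but seldom strong. Only 4 of 14 exceeded the list median, and 7 of 14 lay in the top lists of all 3 replicates. Replicate 1 held 13 of the 14 in its top list (92.9%), replicate 2 held 11 (78.6%) and replicate 3 held 9 (64.3%), the widest spread in percentage points apart from Kr-h1. The weakest, at 1612367 with a signal value of 105.4, just above the end of the list, lay 26 bp from the TSS shared by 8 transcripts. In replicate 1 this summit and its neighbour at 1612120 fell in a single peak of rank 5832, and in replicate 3 it lay in no peak.

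Of the 9 br TSSs 5 had a summit within 500 bp, where 29.1% of all 19607 coding TSSs and 31.8% of the 3330 TSSs of long genes had one. These were the TSS of RC, with a summit 370 bp upstream (signal value 162.0), those of RP and of the 8-transcript group, which share a pair of summits (138.1 and 105.4), that of RI at 315 bp (127.8) and that of RS at 241 bp (130.6). All of these values lie below the list median, so the stronger br summits lay away from its promoters. Near the RS promoter replicate 2 had no top-list summit, while replicates 1 and 3 had 1 each. The 2 most upstream TSSs, of RN and RO, had no summit nearer than 3352 and 3335 bp, that of RH none nearer than 1273 bp, and that of RM none nearer than 665 bp.

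Eip74EF encodes E74A from a distal promoter and E74B from internal ones, both sharing an ETS DNA-binding domain. The gene (FBgn0000567, 3L 17558672 to 17619325, minus strand) has 5 transcripts from 3 TSSs. All 3 TSSs had a summit within 500 bp. At the internal TSS of RB (17576626) a summit lay 44 bp away with a signal value of 782.4, the strongest of the gene. It ranked 581, 698 and 281 in the replicates (mean 520 ± 215) and lay in the 5′ UTR of RB. The other internal TSS, of RD (17576320), was 262 bp from that same summit. At the distal TSS of RA, RC and RE (17619325) the summit lay 219 bp upstream with a signal value of 325.1 and ranks of 3719, 2659 and 2909. The internal summit thus ranked higher than the distal one in every replicate.

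Summits were also densest around the internal TSSs. Both had 8 summits within 5 kb, where 0.214% of all coding TSSs had at least that many, while the distal TSS had 2. The limit of 8 was set after these counts were seen, so the share only places them. The second strongest summit, at 17578551 (693.7), lay 1925 bp upstream of RB and ranked 778, 692 and 427. The third, at 17590857 (569.8), lay 14231 bp upstream of RB in an intron and ranked 1792, 949 and 781. The fourth, at 17611575 (503.3), lay 7750 bp inside the gene from the distal TSS. Its ranks of 1255, 1852 and 5919 set replicate 3 well apart. By nearest own TSS, 9 summits went to RB, 6 to RD and 5 to the distal TSS.

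Of the 20 Eip74EF summits 18 were intronic, and 10 lay over 5 kb from any of its TSSs. The last kilobases of the gene carried 3 that were nearer to a TSS of CycT, which encodes cyclin T, than to Eip74EF. Vps60, which starts beyond the distal end and reaches into the 1 kb upstream, held none of the 20. Replicate top lists held 17, 17 and 16 of the 20 (83.3% ± 2.89), and 12 of 20 were in all 3. The sixth strongest, at 17567027 (363.1), lay in a peak of replicate 2 (rank 2806) and in none of replicates 1 and 3, although their nearest summits were 38 and 25 bp away. The neighbours at 17570151 and 17570351 fell in a single peak of replicate 3, with rank 2138, and had nearest peaks of ranks 5480 and 24810 in replicate 1. By the printed ranks the top lists held 15, 16 and 16 of the 20. With 4 pairs of neighbouring summits under 250 bp apart, the 20 summits came from 16 merged intervals.

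**Figure D3:**
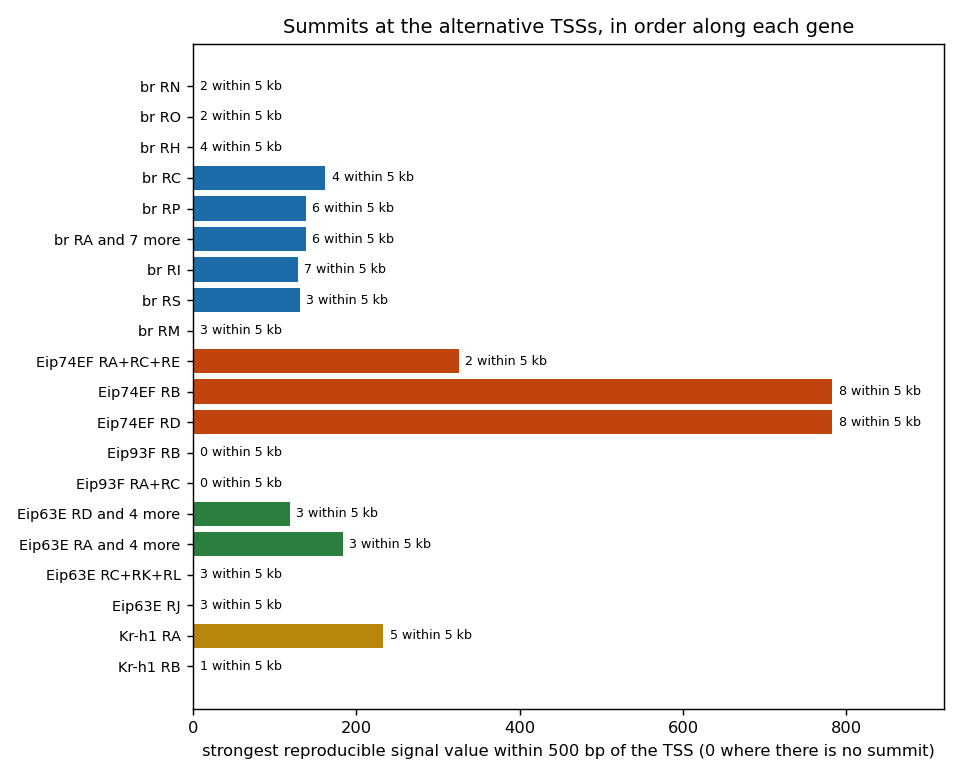
The strongest reproducible signal value within 500 bp of each of the 20 alternative TSSs, in order along each gene, with the number of summits within 5 kb beside each bar. Bars at 0 have no summit within 500 bp. The internal TSSs of Eip74EF reach 782.4, and those of Eip93F have no summit within 5 kb.

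Eip93F, the gene of E93, was the sparsest. The gene (FBgn0264490, 3R 21949114 to 22014539, plus strand) has 3 transcripts from 2 TSSs. Its only reproducible summit, at 21993102, lay in an intron 20723 bp downstream of the TSS of RA and RC. The signal value of 130.3 put it at ranks 8819, 10232 and 7580 (mean 8877 ± 1327), and in replicate 2 that is the last rank but 1 of the top list. Neither TSS had a summit within 500 bp, and none lay within 5 kb of either.

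At the Eip93F promoters stood only weak entries of the pooled list. An entry within 500 bp of the TSS of RB had a signal value of 38.8 (rank 21770). Another, 7 bp from the TSS of RA and RC, had 63.5 (rank 15282). Both are below the 105.2 at which the reproducible list ends, and whether they are binding or background was not tested. The pooled list held 19 summits in the gene, of which 5.26% were kept, against 34.1% of all pooled summits. The TSS of RA and RC had no reproducible summit within 20 kb, as did 12.9% of all coding TSSs, a distance set after the value was seen.

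Upstream of Eip93F, beyond the 1 kb used to assign summits, stood 4 reproducible summits whose nearest coding TSS was that of Eip93F-RB. None lay inside an annotated gene. The nearest, 7.52 kb upstream at 21941593, had a signal value of 524.9 and ranked 1280, 1321 and 1462 in the replicates, stronger in each replicate than the summit inside the gene. The next, 11.9 kb upstream (404.3), ranked 1897, 2168 and 2358. The others, 13.8 and 17.6 kb upstream, had 194.7 and 116.1. The sparse count of this gene therefore depends on where its limits are set, and by nearest coding TSS it had 5 summits.

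Eip63E is the kinase gene of the set and the longest. The gene (FBgn0005640, 3L 3515751 to 3610521, plus strand) has 14 transcripts from 4 TSSs. Its strongest summit, at 3518071, had the highest signal value of the 49 (993.8). It ranked 397, 360 and 444 (mean 400 ± 42.1) and lay in an intron 2320 bp downstream of the first TSS. The second, at 3567305 (355.0), lay 21512 bp past the TSS of RJ and ranked 2450, 2033 and 2023. The remaining summits were weaker. The third, at 3519040 (219.3), ranked 4213, 4811 and 7512 and the fourth, at 3556550 (214.1), ranked 6878, 3623 and 5636.

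The promoters of Eip63E were modestly marked. The first TSS, shared by 5 transcripts, had a summit 60 bp away with a signal value of 118.1, which was in the top list of replicate 3 and not in those of replicates 1 and 2 (ranks 10546, 12562 and 6482). The second, also shared by 5 transcripts, had one 289 bp downstream (183.0) that was in all 3 top lists. The TSSs of RC, RK and RL and of RJ had none nearer than 837 and 1312 bp. No summit lay in the last 43.2 kb of the gene, where the pooled list held 7. Of the 8 summits 7 were in all 3 top lists. Taken singly, the top lists of replicates 1 to 3 held 7, 7 and 8 of them (mean 91.7% ± 7.22). Short RNA genes inside Eip63E, lncRNA:CR45043, lncRNA:CR45820 and snRNA:U7, held none of its summits.

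Kr-h1 is the shortest of the 5 and, with its upstream 1 kb counted, had the most summits per kb. The gene (FBgn0266450, 2L 6082603 to 6096498, plus strand) has 2 transcripts with a TSS each. Its strongest summit, at 6088549 in the intron between them, had a signal value of 875.9 and lay 2863 bp upstream of the TSS of RB. It ranked 484, 578 and 724 (mean 595 ± 121). The TSS of RB is also the annotated start of CG45075, so by nearest coding TSS this summit is tied between the genes and was counted for Kr-h1. The remaining 5 were nearest to the TSS of RA and stood between 979 bp upstream and 3269 bp downstream of it. The one at its promoter, 263 bp upstream (232.9), ranked 5525, 3504 and 4204, weaker than the intronic one in every replicate. The third, at 6085872 (205.4), ranked 5782, 4785 and 5872.

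The weaker Kr-h1 summits varied between replicates. The fourth, at 6083351 (179.4) in a 5′ UTR, ranked 5631 and 3900 in replicates 1 and 3 and 14440 in replicate 2. Top lists held 4, 5 and 6 of the 6 reproducible summits (83.3% ± 16.7), and 4 were in all 3. The fourth summit counts among these because another, stronger peak of replicate 2 covered it, and by the printed ranks 3 were in all 3. The RB promoter, which is also that of the overlapping gene CG45075, had no summit within 500 bp. No summit lay in the last 7.95 kb, and a further one 3.50 kb upstream of the gene (151.2), inside lncRNA:CR9162, had the TSS of RA as its nearest coding TSS.

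**Figure D4:**
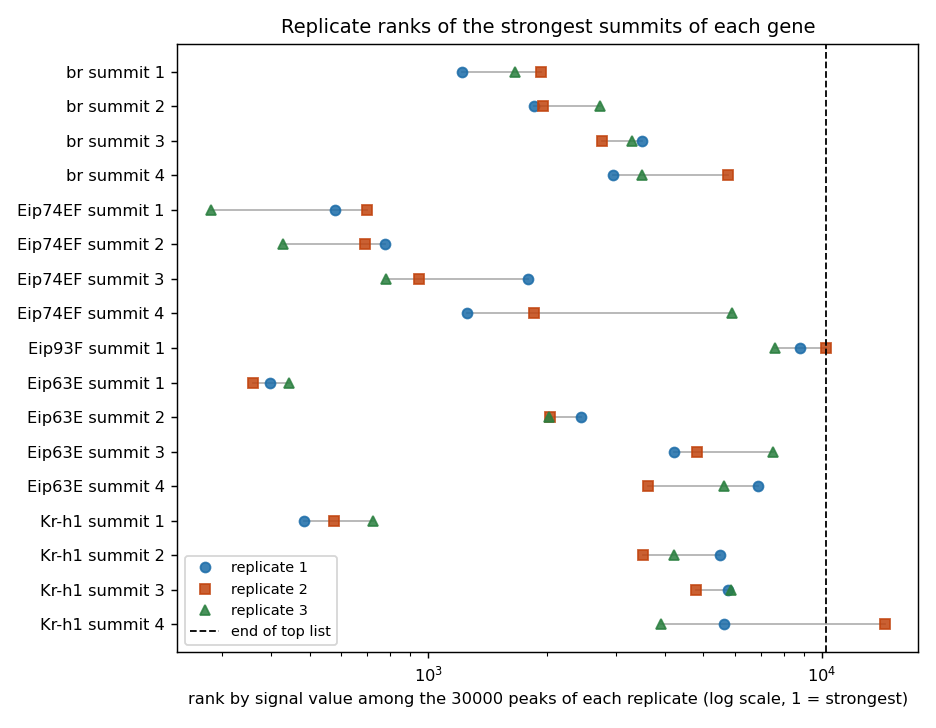
Ranks of the 4 strongest summits of each gene among the 30000 peaks of each replicate, on a log axis on which 1 is strongest, with 1 symbol per replicate and a dashed line at the end of the top list. The strongest summits of Eip63E and Kr-h1 keep to 360 to 444 and 484 to 724, while the fourth of Kr-h1 has a rank of 14440 in replicate 2.

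Judged by each gene's own transcripts, 42 of the 49 summits were intronic, 4 lay in a 5′ UTR, 3 lay upstream and 0 lay in a coding exon or a 3′ UTR. Exons of overlapping genes, such as Mur2B over br, were not checked, and these classes were not counted over the whole list. Within 500 bp of a TSS of their own gene were 11 (22.4%), while 39.7% of all reproducible summits lay that close to some coding TSS. In the replicate top lists the share was 23.3, 14.6 and 25.6% (mean 21.1% ± 5.80). The median distance to the own TSS was 2863 bp, against 1064 bp from any coding TSS over the whole list, and 16 (32.7%) lay over 5 kb away against 24.2%. The measures are unlike, since 7 of the 49 summits were nearer to a coding TSS of another gene, which the own-TSS distance leaves out. The 5 genes are also long, which leaves more room for distant summits. The share of their distance that length accounts for was not tested. Of the 46 summits inside the genes 29 (63.0%) lay before the midpoint of their gene, close to the 63.9% over all long genes. In Eip74EF 13 of 19 lay past the midpoint, where its internal TSSs are, and so did the single summit of Eip93F, while br had 12 of 14 and Eip63E 7 of 8 before it.

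By gene, the strongest summit lay within 500 bp of an own TSS in Eip74EF and away from it in br, Eip93F, Eip63E and Kr-h1, and 31.5% of the 1008 long genes with a summit had theirs at an own TSS. Counting TSSs rather than summits, 11 of the 20 alternative TSSs had one within 500 bp, against 29.1% of all coding TSSs and 31.8% of the TSSs of long genes. By gene that was 5 of 9 in br, 3 of 3 in Eip74EF, 0 of 2 in Eip93F, 2 of 4 in Eip63E and 1 of 2 in Kr-h1. Some of these TSSs lie under 100 bp apart and share summits, and merging them leaves 18, of which 10 had a summit. The internal TSSs of Eip74EF, of RB and RD, lie farther apart and stay separate, although the same summits count for both.

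Recovery in each replicate was near that of the whole list and slightly below it. The top lists held 42, 41 and 40 of the 49 summits (83.7% ± 2.04), against 87.3% ± 2.86 of all reproducible summits. In all 3 were 31 of 49, but no share of the whole list is given for that count, here or by gene. Since the reproducible list was made from the same replicates, recovery measures its internal agreement. Of the 181 pooled summits in the genes 27.1% were kept, with 45.5% in Eip74EF and 50% in Kr-h1 but 19.7% in br, 22.9% in Eip63E and 5.26% in Eip93F. The strongest pooled summit that was not kept had 104.7 in Kr-h1, 101.4 in Eip74EF and 101.0 in br, close to the end of the reproducible list. In Eip93F it had 81.0 (rank 12744) and in Eip63E 67.3 (rank 14620), well past that end. Summits just inside the reproducible list were 105.4 in br, 109.3 in Eip74EF and 111.1 in Kr-h1.

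Motifs within 100 bp of the summits differed among the genes. The N-box, a site known for HES proteins, stood near 16 of 49 summits (32.7%) against 20.3% of all reproducible summits, with 9 of them in br, 3 each in Eip74EF and Eip63E, 1 in Eip93F and none in Kr-h1. The class C site, the site best known for Hairy, stood near 5 (10.2%, against 6.24%), 2 each in Eip74EF and Kr-h1 and 1 in br. GAGAGA, the site of the GAGA factor Trl, stood near 13 (26.5%, against 12.6%), 7 in br and 6 in Eip74EF. The receptor element core AGGTCA stood near 5 (10.2%, against 3.53%), 4 in Eip74EF and 1 in br. Within 50 bp it stood near 0, a window for which no share of the whole list is given. The other motifs were near the list as a whole or below it. CACGTG had 1 (2.04%, against 2.11%), GTGCAC 4 (8.16%, against 7.55%), GGTCACAC 1 (2.04%, against 2.12%), ACACTG 6 (12.2%, against 16.6%), CAGCTG 2 (4.08%, against 9.47%), CAGGTA 1 (2.04%, against 4.29%) and TATCGATA 0 (against 3.00%).

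A match is a description of letters and not a binding site. Both strands were searched, AGGTCA and GGTCACAC share the letters GGTCA, and neighbouring windows can hold the same match. The windows of the 5 genes had a mean GC content of 44.8% ± 9.68 (SD over 49 windows), against 38.4% ± 8.18 over the whole list. GC content was 49.5% in br, 48.8% in Kr-h1, 44.7% in Eip74EF, 38.8% in Eip93F and 34.6% in Eip63E, and its part in the motif shares was not tested.

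Other genes of the hormone pathways place these 5 in context. Of 99 listed genes 59 (59.6%) carried a reproducible summit, but the lists differ in gene length, and a longer gene has more room for one. No share below was matched to the gene lengths of a list. All 9 of 9 nuclear receptors of the cascade did (median length 39.9 kb), where the share of long genes is 68.9%, although usp (3.51 kb) is shorter than those. Eip75B had 35 summits with the strongest at 2607, EcR 16 (533.1), Hr4 10 (1605), ftz-f1 8 (319.5), Hr3 7 (316.0), Eip78C 5 (2164), usp 3 (403.4), Hr38 3 (376.9) and Hr39 2 (171.6). Eip75B had more reproducible summits than any of the 5 genes, and so did tai, a gene of the next list, with 21 over 83.4 kb. In the replicate top lists EcR had 18, 21 and 17, which overlaps the 18 of Eip74EF in each. In the list of other ecdysone-induced regulators and early-late genes 14 of 15 had a summit (median length 12.1 kb). The share was 36.7% of all coding genes and 68.9% of long genes, and some of the list, such as tai, are that long. The list was drawn up by name, and whether ecdysone induces each of its genes was not tested here. It was led in strength by vri (1599), E23 (1047), ImpL2 (993.0) and tai (967.3), the last a coactivator of EcR.

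Genes that make, take up or break down the hormones were marked in part. For ecdysteroid synthesis and uptake 4 of 12 genes carried a summit (33.3%, median length 3.26 kb), against 36.7% of all coding genes. Those were mld (665.8), the importer gene Oatp74D (491.1), shd (145.1) and sro (144.0). For juvenile hormone 4 of 8 did (median length 2.09 kb), against that same 36.7%. These were the epoxide hydrolase genes Jheh1 (710.1), Jheh3 (392.8) and Jheh2 (193.2) and the receptor gene gce (339.7). Met, the other receptor gene, and jhamt, Jhe and Fkbp39 had none. Among the salivary glue and late puff genes, which are very short (median 0.606 kb), 2 of 17 had a summit, against 36.7% of all coding genes. They were Sgs5 (429.6) and Sgs1 (399.9).

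Gene families and downstream processes tied to the 5 genes varied as well. Of the death and autophagy genes 8 of 12 had a summit (median length 2.99 kb), against 36.7% of all coding genes, with the strongest at Diap1 (1442), hid (1026), Atg1 (610.8) and Atg5 (499.9). Of cyclin Y and the cyclin-dependent kinase genes, relatives and partner of Eip63E, 4 of 10 did (median length 2.34 kb), near that same share. Those were Pitslre (337.9), Cdk12 (294.1), Cdk4 (263.8) and Cdk1 (184.8), while CycY, Cdk2, Cdk5, Cdk7, Cdk8 and Cdk9 had none, and the top lists gave 56.7% ± 5.77 for this list. No kinase of that list had a summit as strong as the first one of Eip63E. Of the BTB and ETS relatives of br and Eip74EF 16 of 18 did (median length 24.3 kb), against 68.9% of long genes, led by Trl (2187), aop (1193), fru (1028) and edl (916.8), each stronger than the strongest summit of br or Eip74EF.

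**Figure D5:**
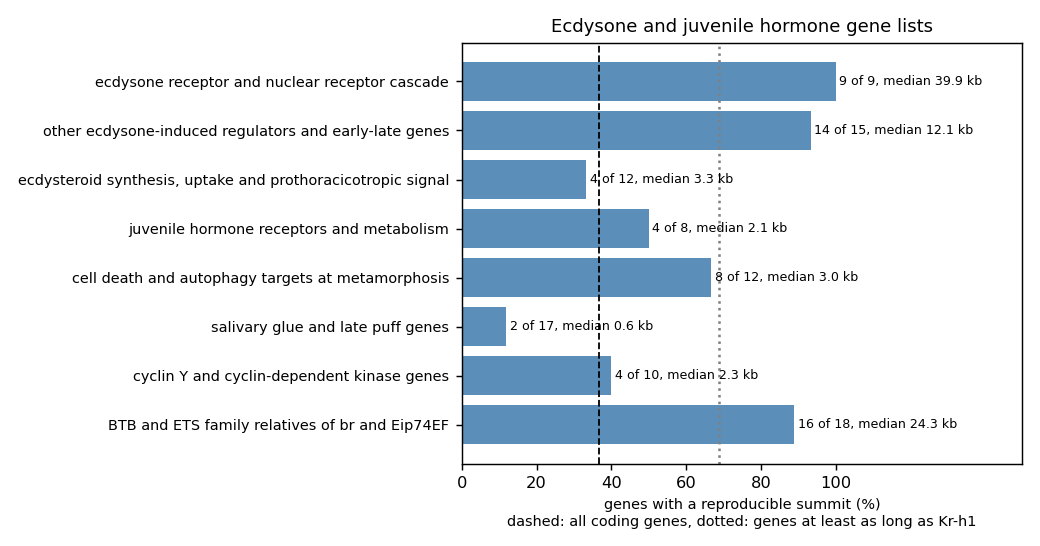
Percentage of genes with a reproducible summit in 8 hormone pathway and family lists, with the count and the median gene length beside each bar. The dashed line is the 36.7% of all coding genes and the dotted line the 68.9% of long genes. The nuclear receptors (9 of 9) lie highest and the glue and late puff genes (2 of 17) lowest, and these lists also have the longest and shortest median gene length.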

How the data were processed

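Anti-GFP ChIP-seq peak lists of 3 biological replicates, 1 group, were used as deposited on dm6. Per the labels, each replicate has a list of 30000 peaks prepared for an irreproducible discovery rate (IDR) analysis. A pooled list of peaks and background and an IDR-thresholded list cover all replicates. The signal value ranked here is the authors' deposited score, with no stated scale. Aligner, peak caller and IDR cutoff: not given in the sources used here. Lists on dm3 were not used.

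Summits were taken from the peak start and the summit offset, and genes and TSSs from Ensembl release 115 of the same assembly. Sequences were read from the RefSeq genome of that assembly. A summit belonged to a gene from 1 kb upstream to its end, and to its nearest own TSS. A replicate held a reproducible summit if that summit lay inside one of its peaks. Scripts used Python 3.11.15, pandas 2.3.3 and NumPy 2.4.6, were tested on simulated data, and ran no test of significance. Replicate spread is given as mean ± SD.

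The genes, lists, motifs and naming rule were chosen with earlier results of these data known. Named were the 5 genes, genes overlapping them or with a coding TSS nearest to their summits, up to 4 genes with the strongest summit in each list (all of lists of 10 or fewer), and the gene next above and below each in summits per kb. Summits given in full are the 4 strongest of each gene. Other named summits, genes without a summit and the distances of 5 and 20 kb around TSSs were chosen after their values were seen. Older symbols were matched through RefSeq synonyms, and 1 listed gene was not analysed here.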

Additional observations from a re-analysis of the deposited data

How the results depend on the processing

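Counts were taken again with other gene limits, list limits, gene assignment and motif windows, and with each replicate left out. Of 85 alternatives 52 stayed near the value reported, within 1.5 times for a count or 1 SD between replicates for a share, and 33 moved. Keeping only peaks above the median signal value left 4 summits in br, 11 in Eip74EF, 0 in Eip93F, 4 in Eip63E and 3 in Kr-h1, and 4 TSSs with one. Requiring all 3 top lists left 7 in br and 12 in Eip74EF. Assigning summits to the nearest coding TSS gave Eip93F 5. With all 30000 peaks the mean replicate counts were 72.7 in br, 41.3 in Eip74EF, 15.3 in Eip93F, 32.7 in Eip63E and 11.3 in Kr-h1, and the recovery was 95.9%. A replicate summit within 200 bp gave a recovery of 87.1%. The promoter share was 14.3% at 250 bp and 30.6% at 1000 bp, and 6 TSSs had a summit within 250 bp. Leaving out each replicate gave mean top-list counts of 11.5 to 14 in br, 18 in Eip74EF, 1 in Eip93F, 7 to 7.5 in Eip63E and 5 to 6.5 in Kr-h1, and a recovery of 82.7 to 84.7%. Narrower or wider motif windows moved most motif counts: within 50 bp the N-box stood near 10 summits, GAGAGA near 8 and AGGTCA near 0, and within 200 bp the N-box near 26 and GAGAGA near 22. Unknown read depth limits what a missing summit shows. No paired analysis was possible because the samples form a single group.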
